A study of Mus musculus with 11 samples.

Results

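The interferon-inducible GTPases described here are 10 genes of the count table, picked by symbol from the 54513 genes it lists, and all 10 passed the filter on low counts. They comprise 3 regulatory immunity-related GTPases (Irgm1, Irgm2 and Igtp), 3 effector immunity-related GTPases (Iigp1, Tgtp1 and Tgtp2) and 4 guanylate-binding proteins (Gbp2, Gbp3, Gbp6 and Gbp7). Their messenger RNA was followed in colonic epithelial cells of mice with and without miR-181, after chemical injury of the colon and without it.

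The DSS DKO group (n = 3) carried deletions of 2 microRNA clusters, miR-181a1-b1 plus miR-181a2-b2 (double knockout, DKO), and received 2% dextran sulphate sodium (DSS), a polysaccharide that injures the colonic epithelium, for 7 days with 2 days of recovery. The DSS WT group (n = 3) was wild type (WT) for both clusters and had the same treatment. The baseline DKO group (n = 3) and the baseline WT group (n = 2) had no DSS. All groups were epithelial cells from which lymphocytes had been depleted in Percoll, a density medium. The labels give neither strain, age nor sex, and they call the libraries biological replicates but do not say whether 1 library is 1 mouse, and p-values therefore reflect only how these samples vary, which may be technical. The comparisons ask whether these genes differ with genotype after DSS and at baseline, and how DSS changed them in each genotype.

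Libraries held 41631951 to 52761900 counts, and levels are given in CPM, counts scaled to a common library size. All 10 epithelial markers were detected in every group, with summed levels of 15400 to 15900 CPM in DSS DKO libraries, 18900 to 20100 in DSS WT, 20100 to 21000 in baseline DKO and 14900 to 19000 in baseline WT. The 4 precursor genes of the deleted clusters had 0 counts in all 11 libraries, WT included, so these libraries cannot check the knockout. A row of 18S ribosomal RNA took 0.315% to 23% of the counts in baseline DKO libraries, against 0.628% to 1.59% in baseline WT. Xist was at 633 to 906 CPM in DSS libraries and at 6.75 to 14.5 CPM in baseline libraries, while the Y-linked Ddx3y was at 0.162 to 0.895 CPM in DSS libraries and at 42.6 to 54.9 CPM in baseline libraries. DSS and the sex of the mice therefore cannot be told apart in any comparison of DSS with baseline, whereas comparisons of genotype stayed within one such pattern.

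Immunity-related GTPases and guanylate-binding proteins are among the genes most strongly induced by interferon gamma in mouse cells. The cytokine binds the receptor chains Ifngr1 and Ifngr2, the kinases Jak1 and Jak2 pass the signal on, and Irf1 is among the factors that drive transcription of the GTPases. The effector proteins assemble on the vacuoles of intracellular parasites and bacteria and break them open, and the regulatory proteins hold the effectors inactive on the cell's own membranes. In the gut epithelium the family is known for defence against invasive microbes, and loss of Irgm1 is known to disturb secretory cells of the intestine.

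On GRCm38 (mm10), GENCODE M21 places Irgm1 on the minus strand of chromosome 11 from 48861968 to 48871683. Tgtp1 (48985327 to 48994172) and Tgtp2 (49057194 to 49064206) lie on the minus strand of the same chromosome, and Igtp (58199556 to 58207591) and Irgm2 (58199618 to 58222782) on its plus strand. Gbp7 (142530342 to 142550149), Gbp3 (142560026 to 142573209) and Gbp2 (142620602 to 142638008) follow each other on the plus strand of chromosome 3. Gbp6 is on the minus strand of chromosome 5 (105270702 to 105293698) and Iigp1 on the plus strand of chromosome 18 (60376027 to 60392634). All 10 are annotated as protein coding.

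Some of these genes have near-identical copies, and how reads were assigned to copies is not given in the sources used here. Of the 50-base stretches in annotated transcripts, 81.2% of those of Tgtp1 and 86.6% of those of Tgtp2 also occurred in another gene, mostly in each other. For Gbp6 the share was 70.7%, with Gm43302 (65.0%) as the main partner, whereas it was 12.7% for Gbp7, 11.8% for Igtp, 7.83% for Irgm2 and at most 3.75% for the other 4 genes. Values of Tgtp1, Tgtp2 and Gbp6 are uncertain for that reason. Exons of Igtp and Irgm2 overlap by 162 bases, Tgtp1 overlaps Gm12185 by 223, Gbp6 overlaps Gm43302 by 1726 and Gbp7 overlaps Gm43802 by 637, all on the same strand. Gm43302 and Gm43802 had 0 counts in all 11 libraries.

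RefSeq promoters (GRCm38.p6, 250 bases before to 50 after a start) were given for 8 of the 10 genes. The following 50-base stretches are shown because each holds the matches nearest to the start for a motif like the interferon-stimulated response element (ISRE), the site bound by interferon regulatory factors. Capitals mark the 9-letter motif GAAANNGAA, or its reverse complement where it lies on the other strand.
Irgm1: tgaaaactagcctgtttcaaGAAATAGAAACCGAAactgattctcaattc
Irgm2: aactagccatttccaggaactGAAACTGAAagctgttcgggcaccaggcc
Igtp: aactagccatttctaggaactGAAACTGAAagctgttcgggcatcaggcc
Tgtp1: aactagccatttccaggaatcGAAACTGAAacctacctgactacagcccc
Tgtp2: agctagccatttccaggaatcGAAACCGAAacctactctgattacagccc
Gbp2: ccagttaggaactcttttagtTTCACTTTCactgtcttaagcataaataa
Gbp3: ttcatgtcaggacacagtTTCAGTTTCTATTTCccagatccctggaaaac
Gbp7: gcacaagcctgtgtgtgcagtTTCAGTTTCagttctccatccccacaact
The stretches are chr11:48871421-48871470 (minus strand), chr11:58214892-58214941 (plus strand), chr11:58199501-58199550 (plus strand), chr11:48992295-48992344 (minus strand), chr11:49064254-49064303 (minus strand), chr3:142620584-142620633 (plus strand), chr3:142559982-142560031 (plus strand) and chr3:142530263-142530312 (plus strand).

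The ISRE-like motif occurred in a promoter of 8 of 8 genes, against 8.56% of the 32851 promoters of the same length in the table. With a further A at its end it still occurred in 8 of 8 genes, against 3.44% of all promoters. Gbp3 has a second annotated promoter, which held no match, and its first promoter held a pair of matches overlapping by 3 bases, as did that of Irgm1. All ISRE-like matches lay between 77 and 16 bases before the start. A motif like the gamma-activated sequence (GAS), another site of the interferon response (TTCNNNGAA, which reads the same on both strands) occurred in 5 of 8 genes, namely Irgm2, Igtp, Tgtp1, Tgtp2 and Gbp7, against 8.30% of all promoters. In Irgm2, Igtp, Tgtp1 and Tgtp2 it stood just before the ISRE-like motif, and no match of one motif overlapped one of the other. The Igtp and Irgm2 promoters were identical at 73.5% of aligned positions and those of Tgtp1 and Tgtp2 at 67.7%, so these matches are not independent of one another. These are matches of letters and were not tested as binding sites.

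**Figure D1:**
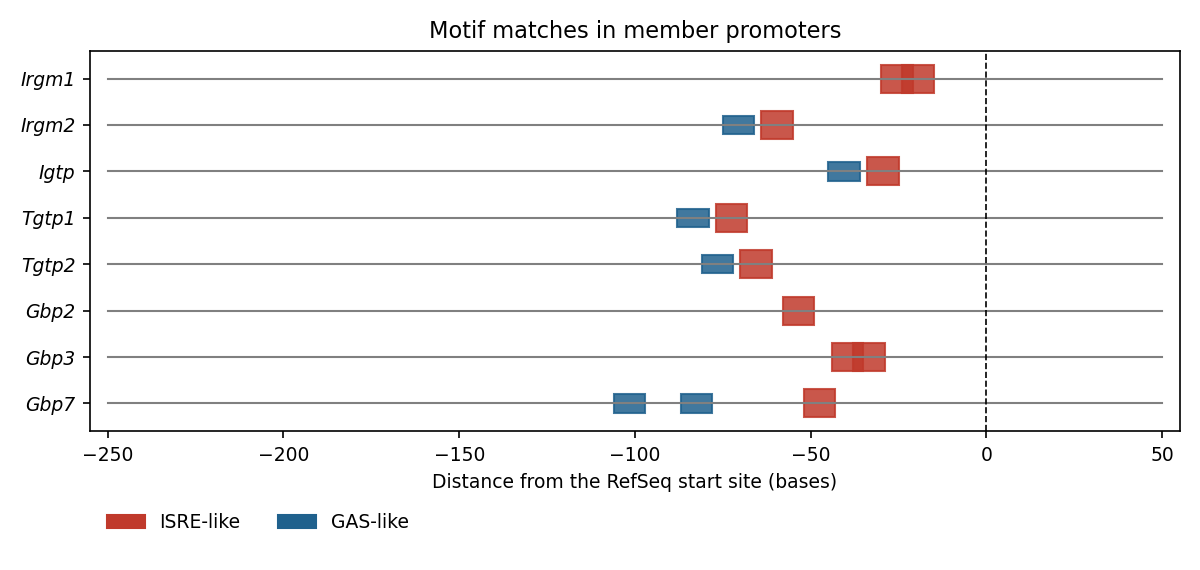
Position of ISRE-like and GAS-like motif matches in the first RefSeq promoter of 8 GTPase genes, in bases from the start site (dashed line). Red boxes mark ISRE-like and blue boxes GAS-like matches; the ISRE-like matches lie between 77 and 16 bases before the start.

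The 250 bases before the start of Tgtp1 (chr11:48992247-48992496, minus strand) are shown whole, because Tgtp1 had the largest difference between genotypes of the 10 genes. Capitals mark first the GAS-like and then the ISRE-like motif.
Tgtp1 upstream: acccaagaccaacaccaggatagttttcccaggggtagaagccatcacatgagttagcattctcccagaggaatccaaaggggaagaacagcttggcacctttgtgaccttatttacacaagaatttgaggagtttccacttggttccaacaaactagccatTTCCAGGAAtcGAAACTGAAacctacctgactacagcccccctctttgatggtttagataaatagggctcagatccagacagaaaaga

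After DSS, the GTPases were lower in DKO than in WT epithelium. In every one of the 10 genes each DSS DKO library lay below each DSS WT library, whereas 17.9% of the 19267 genes tested did so. Of the 10 genes, 9 passed as lower and 0 as higher at an adjusted p under 0.05 (edgeR quasi-likelihood F-test, Benjamini-Hochberg adjusted over all genes), against 5.98% of all genes lower and 5.26% higher. Log2 fold changes ran from -3.95 to -0.60 with a median of -1.74, beside a median of 0.026 over all genes tested. By class, the median was -2.94 for the 3 effectors, -1.15 for the 3 regulators and -1.28 for the 4 guanylate-binding proteins.

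**Figure D2:**
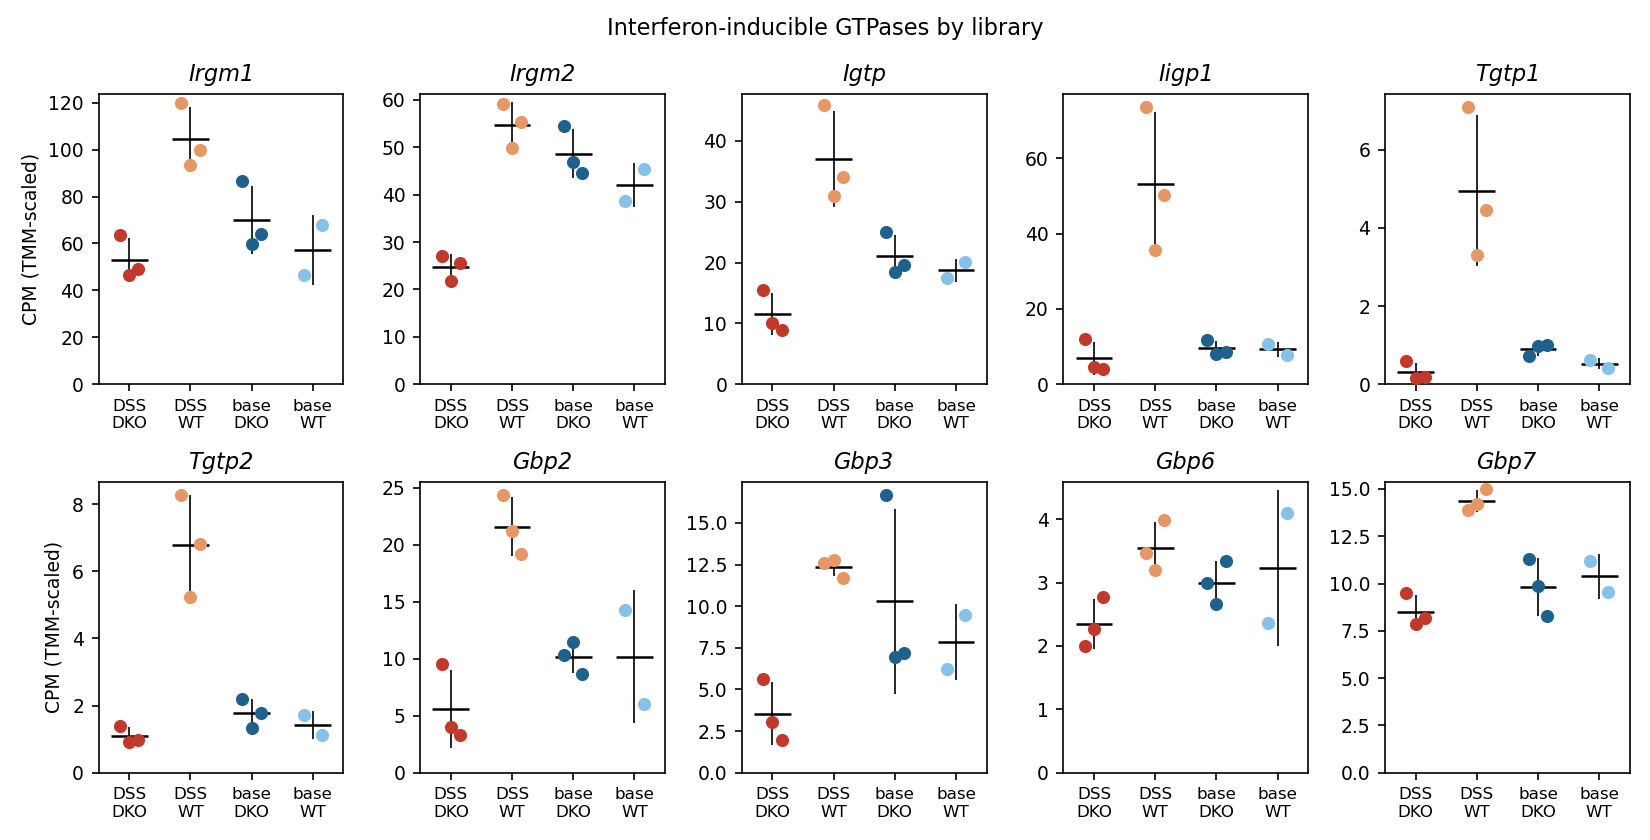
TMM-scaled CPM of each GTPase gene in every library (points), with the group mean (horizontal line) and SD (vertical line), for DSS DKO, DSS WT, untreated DKO (base DKO) and untreated WT (base WT). In all 10 genes the 3 DSS DKO points lie below the 3 DSS WT points.

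The effectors had the widest gaps. Tgtp1, a GTPase known as Irgb6 that coats parasite vacuoles, had 0.592, 0.162 and 0.181 CPM in DSS DKO libraries, against 7.09, 3.32 and 4.46 CPM in DSS WT libraries. Tgtp1 was lower in DSS DKO than in DSS WT by 3.95 ± 0.48 on the log2 scale (SE, adjusted p = 0.000803), or 15.5-fold. These values rest on 32, 8 and 8 counts in DSS DKO and on 362, 178 and 243 counts in DSS WT. Tgtp2, its near-identical neighbour, had 1.39, 0.911 and 0.975 CPM in DSS DKO, against 8.27, 5.24 and 6.81 CPM in DSS WT, a log2 fold change of -2.63 ± 0.29 (SE, adjusted p = 0.000654). With the counts of both genes added together, the log2 fold change was -3.06 ± 0.31 (SE, adjusted p = 0.000402). Tgtp1 made up 15.1% to 29.9% of the pair's counts in DSS DKO and 38.8% to 46.2% in DSS WT. Iigp1, known as Irga6, which disrupts the vacuole of Toxoplasma, had 12.0, 4.48 and 4.10 CPM in DSS DKO, against 73.6, 35.5 and 50.2 CPM in DSS WT. Its log2 fold change was -2.94 ± 0.45 (SE, adjusted p = 0.00445), or 7.70-fold lower. The groups did not overlap in any of the 3, and DSS DKO replicate 1 was the highest library of its group in each. Without it, the log2 fold change was -4.83 for Tgtp1 and -3.63 for Iigp1, a shift of over 1.5-fold in both.

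The regulators differed between genotypes by smaller factors than the effectors. Irgm1, which is needed for autophagy and holds effectors in check, had 63.7, 46.4 and 49.2 CPM in DSS DKO, against 120, 93.5 and 100 CPM in DSS WT. Its log2 fold change was -0.98 ± 0.19 (SE, adjusted p = 0.00814). Irgm2, a regulator of the Golgi membrane, had 27.0, 21.8 and 25.6 CPM in DSS DKO, against 59.2, 49.9 and 55.3 CPM in DSS WT, with a log2 fold change of -1.15 ± 0.13 (SE, adjusted p = 0.000725). It had the smallest standard error of the 10 genes. Igtp, also called Irgm3 and found at the endoplasmic reticulum, had 15.5, 10.1 and 9.0 CPM in DSS DKO, against 45.9, 30.9 and 34.1 CPM in DSS WT. Igtp was 3.20-fold lower, with a log2 fold change of -1.68 ± 0.22 (SE, adjusted p = 0.00131). Without DSS DKO replicate 2 the adjusted p of Irgm1 was 0.053, while Irgm2 and Igtp passed without any 1 library.

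Of the guanylate-binding proteins, Gbp2, Gbp3 and Gbp7 were lower in DSS DKO than in DSS WT, and Gbp6 did not pass the test. Gbp2, which is recruited to parasite vacuoles and restricts Toxoplasma, had 9.53, 4.03 and 3.27 CPM in DSS DKO, against 24.4, 21.2 and 19.2 CPM in DSS WT, with a log2 fold change of -1.94 ± 0.41 (SE, adjusted p = 0.0155). Gbp3, its neighbour on chromosome 3, had 5.64, 3.02 and 1.97 CPM in DSS DKO, against 12.6, 12.8 and 11.7 CPM in DSS WT, with a log2 fold change of -1.80 ± 0.42 (SE, adjusted p = 0.0213). Gbp7, of the same cluster, had 9.49, 7.86 and 8.19 CPM in DSS DKO, against 13.9, 14.2 and 15.0 CPM in DSS WT, with a log2 fold change of -0.76 ± 0.16 (SE, adjusted p = 0.0122). Gbp6, of the chromosome 5 cluster, had 2.00, 2.27 and 2.77 CPM in DSS DKO, against 3.47, 3.19 and 3.98 CPM in DSS WT. Its groups did not overlap, but its log2 fold change of -0.60 ± 0.24 had an adjusted p of 0.139. The calls in this class rested on single libraries, and the log2 fold change of Gbp2 was -2.56 without DSS DKO replicate 1. Without DSS DKO replicate 2 the adjusted p was 0.0735 for Gbp2, 0.0986 for Gbp3 and 0.0647 for Gbp7. Without DSS WT replicate 3 it was 0.0578 for Gbp3 and 0.0531 for Gbp7, and without DSS WT replicate 2 it was 0.0635 for Gbp3.

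At baseline no difference between genotypes was detected. Of the 10 GTPases, 0 passed as higher and 0 as lower, as in nearly all genes (0.0104% higher and 0.0156% lower), with every adjusted p at 1. At an unadjusted p under 0.05 the counts were also 0 and 0, and DESeq2 and limma-voom called 0. Log2 fold changes ran from -0.11 for Gbp6 to 0.77 for Tgtp1. Igtp, for example, had 25, 18.5 and 19.6 CPM in baseline DKO, against 17.4 and 20.1 CPM in baseline WT, and Iigp1 had 11.8, 8.11 and 8.58 CPM in baseline DKO, against 10.7 and 7.76 CPM in baseline WT. Only Tgtp1 was higher in every baseline DKO library, at 0.712, 0.968 and 1.01 CPM, against 0.626 and 0.425 CPM in baseline WT, and 9.92% of all genes were higher in every library. Its log2 fold change was 0.77 ± 0.52 (SE), and the other 9 genes overlapped between genotypes.

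**Figure D3:**
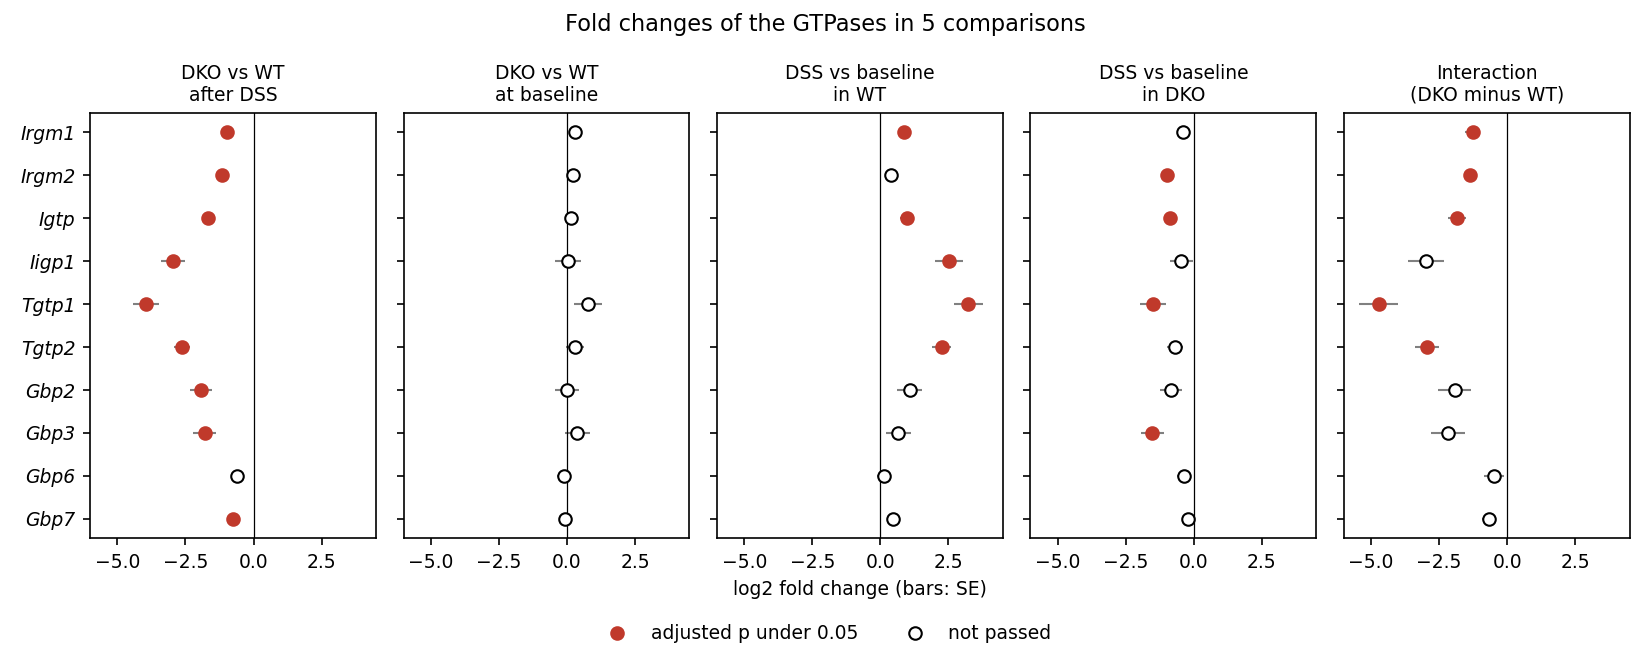
Log2 fold change (points) with its SE (bars) of each GTPase gene in 5 comparisons of edgeR's quasi-likelihood model; filled points had an adjusted p under 0.05 and open points did not. All 10 points lie below 0 for DKO against WT after DSS and all 10 above 0 for DSS against baseline in WT.

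In WT epithelium the effectors were several-fold higher after DSS than at baseline. Of the 10 GTPases, 5 rose and 0 fell, beside 16.9% of all genes higher and 16.5% lower, and 9 of 10 were higher in every DSS library, beside 31.9% of all genes. Tgtp1 averaged 4.96 ± 1.94 CPM in DSS WT and 0.526 ± 0.142 CPM in baseline WT (SD, n = 3 and 2), with a log2 fold change of 3.23 ± 0.54 (SE, adjusted p = 0.00135). Iigp1 averaged 53.1 ± 19.3 CPM in DSS WT and 9.24 ± 2.08 CPM in baseline WT, with a log2 fold change of 2.52 ± 0.51 (SE, adjusted p = 0.00575). Tgtp2 averaged 6.77 ± 1.52 CPM in DSS WT and 1.42 ± 0.42 CPM in baseline WT, with a log2 fold change of 2.25 ± 0.34 (SE, adjusted p = 0.000777). All 3 effectors thus rose. Of the regulators, Irgm1 (log2 fold change 0.87 ± 0.22, adjusted p = 0.00999) and Igtp (0.98 ± 0.25, adjusted p = 0.0115) rose, and Irgm2 did not pass (0.38 ± 0.14, adjusted p = 0.0595). None of the 4 guanylate-binding proteins passed, with log2 fold changes between 0.13 and 1.09, although Gbp2 passed in 6 other settings, Gbp7 in 4 and Gbp3 in 1. The fold of Gbp2 (1.09 ± 0.46) turned on its baseline WT libraries, at 14.3 and 6.04 CPM, and was 1.84 without replicate 1 and 0.61 without replicate 2. Gbp6 was the 1 gene whose groups overlapped, at 3.47, 3.19 and 3.98 CPM in DSS WT, against 2.36 and 4.10 CPM in baseline WT. Without baseline WT replicate 1 the adjusted p was 0.117 for Irgm1 and 0.101 for Igtp, which left 3 calls, and without baseline WT replicate 2 it was 0.052 for Iigp1.

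In DKO epithelium none of the 10 GTPases was called higher after DSS than at baseline, and 4 fell. Among all genes, 12.6% were higher and 11% lower. At an unadjusted p under 0.05, 0 were higher and 5 lower, and no tool run called any higher. Irgm2 averaged 24.8 ± 2.67 CPM in DSS DKO and 48.6 ± 5.16 CPM in baseline DKO (SD, n = 3 each), with a log2 fold change of -0.97 ± 0.13 (SE, adjusted p = 0.000521). Igtp averaged 11.5 ± 3.46 CPM in DSS DKO and 21 ± 3.51 CPM in baseline DKO, with a log2 fold change of -0.86 ± 0.22 (SE, adjusted p = 0.0151). Gbp3 (log2 fold change -1.52 ± 0.42, adjusted p = 0.0242) and Tgtp1 (-1.50 ± 0.48, adjusted p = 0.0401) also fell, and Tgtp1 was at -2.39 without DSS DKO replicate 1. These 4 genes were lower in every DSS DKO library, beside 19.6% of all genes, and the other 6 overlapped, Iigp1 at 12.0, 4.48 and 4.10 CPM in DSS DKO, against 11.8, 8.11 and 8.58 CPM in baseline DKO. Only the Irgm2 call held without each library in turn. The adjusted p of Tgtp1 was 0.135 without DSS DKO replicate 2, 0.113 without DSS DKO replicate 3 and 0.0517 to 0.105 without any of 6 other libraries (DSS WT replicate 3, baseline DKO replicates 1, 2 and 3, baseline WT replicates 1 and 2). Without DSS DKO replicate 2 it was 0.065 for Igtp and 0.0861 for Gbp3, and without baseline DKO replicate 1, the library richest in 18S, it was 0.0597 for Igtp and 0.0774 for Gbp3. Without baseline DKO replicates 1 and 2 together, 1 of 10 genes passed, Irgm2. Without DSS DKO replicate 1, in contrast, 7 of 10 passed as lower.

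The difference between DSS and baseline libraries was unequal between genotypes in 5 of the 10 GTPases. The interaction term, the DSS effect in DKO minus that in WT, was below 0 in all 10 (median -1.89 on the log2 scale, beside 0.025 over all genes) and passed as lower in 5 and as higher in 0, against 0.794% of all genes lower and 0.773% higher. Tgtp1 had an interaction of -4.73 ± 0.71 (SE, adjusted p = 0.0126), Tgtp2 one of -2.93 ± 0.44 (adjusted p = 0.0126) and Igtp one of -1.84 ± 0.33 (adjusted p = 0.0225). Irgm2 had one of -1.35 ± 0.20 (adjusted p = 0.0123) and Irgm1 one of -1.27 ± 0.29 (adjusted p = 0.0495). All 3 regulators and the Tgtp pair therefore passed. Iigp1 had a larger value, -2.98 ± 0.65, that did not pass (adjusted p = 0.0564), nor did Gbp2, Gbp3, Gbp6 or Gbp7, with adjusted p between 0.1 and 0.507. Because the DSS WT and DSS DKO libraries also enter the comparisons above, these values are not independent of them. The term also sets DSS against baseline libraries, which differed in Xist and Ddx3y. A genotype difference in the response to DSS and one in the effect of sex therefore cannot be told apart. The number of genes called for the interaction in the whole table, 302 of 19267 in the main fit, also moved with single libraries. Leaving out either baseline WT library left 1 in that group. Most or all GTPase calls were then lost, as were most calls of the whole table. Those fits therefore cannot show whether the GTPases in particular depend on a baseline WT library. Irgm1 passed without DSS DKO replicate 1 but lost its call without any other DSS library or any baseline DKO library. In the fit lacking DSS DKO replicate 1, 8 of 10 passed, beside 1498 of 19147 genes in the whole table. Tgtp1 then had an interaction of -5.61, and the adjusted p was 0.00161 for Iigp1, 0.00757 for Gbp2 and 0.018 for Gbp3. The count was 3 without DSS DKO replicate 2, DSS WT replicate 3, baseline DKO replicate 1 or baseline DKO replicate 3.

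Across the 11 libraries the genes kept a shared pattern with unequal amplitude. With each gene's log2 CPM set to a mean of 0, the mean over the 10 genes was -0.36, -1.08 and -1.11 in the DSS DKO libraries, 1.25, 0.83 and 1.01 in DSS WT, 0.19, -0.15 and -0.12 in baseline DKO, and -0.19 and -0.26 in baseline WT. DSS DKO replicate 1 was the highest library of its group for every gene but Gbp6, and DSS WT replicate 1 the highest of its group for every gene but Gbp3, Gbp6 and Gbp7. Igtp lay closest to the family mean, with a root mean square difference of 0.138 (log2) over the 11 libraries, and Tgtp1 farthest from it, at 0.887. Spread among replicates differed between genes as well. The highest DSS DKO library exceeded the lowest 3.65-fold for Tgtp1, 2.93-fold for Iigp1 and 2.92-fold for Gbp2, but 1.21-fold for Gbp7 and 1.24-fold for Irgm2.

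**Figure D4:**
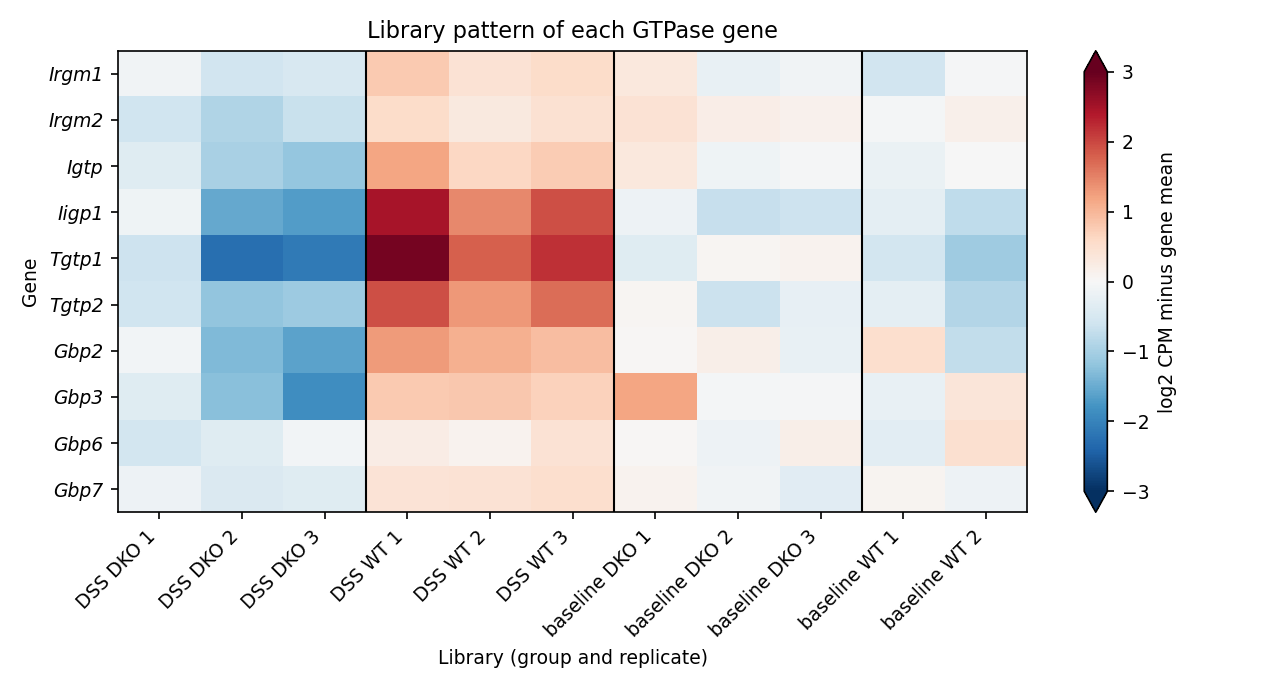
Log2 CPM of each GTPase gene minus the gene's own mean over 11 libraries (colour), with genes in rows and libraries in columns, in the order DSS DKO, DSS WT, baseline DKO, baseline WT (black lines between groups). The DSS WT columns are positive in all 10 rows, and the Tgtp1 and Iigp1 rows have the widest range.

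Levels of different genes were compared per kilobase of exon. In DSS DKO the order began with Irgm1 at 9.14 ± 1.60 CPM per kb (SD, n = 3), then Irgm2 at 6.72 ± 0.73 and Igtp at 5.70 ± 1.72, the last pair overlapping in range. In DSS WT it began with Igtp at 18.3 ± 3.91 CPM per kb, Irgm1 at 18 ± 2.38 and Irgm2 at 14.9 ± 1.27, and Igtp overlapped both of the others. Iigp1 was at 1.18 ± 0.77 CPM per kb in DSS DKO, rank 6 of 10, and at 9.12 ± 3.30 in DSS WT, rank 4 of 10 and overlapping Gbp2 (8.59 ± 1.04). At baseline Irgm2, Irgm1 and Igtp again led in both genotypes, with 13.2, 12.1 and 10.4 CPM per kb in DKO and 11.4, 9.84 and 9.27 CPM per kb in WT. The lowest gene was Tgtp1 in DSS DKO (0.0972 CPM per kb), baseline DKO (0.280) and baseline WT (0.164), and Gbp6 in DSS WT (0.596). Per kilobase of coding sequence instead of exon, Irgm1 led in all 4 groups, for example at 43.3 in DSS DKO and 85.2 in DSS WT.

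Upstream of the GTPases, the interferon gamma gene itself was near the detection limit. Ifng had 0, 8 and 0 counts in DSS DKO libraries, against 30, 45 and 19 in DSS WT, and 0, 2 and 10 in baseline DKO, against 6 and 2 in baseline WT. The DSS groups did not overlap, and the log2 fold change of -3.39 did not pass (adjusted p = 0.0679). Its adjusted p ran from 0.000202 to 0.229 over the settings, and it passed without a filter on low counts, with DESeq2 (0.0342), with limma-voom (0.0272) and without DSS DKO replicate 2 (0.0379), which held all 8 of the group's counts. Of the 4 tested genes of interferons and of cytokines that raise interferon gamma, 1 was higher in DSS DKO than in DSS WT, Il18. It was at 77.1 CPM in DSS DKO and 44.1 CPM in DSS WT (log2 fold change 0.80, adjusted p = 0.00216). Among all genes 5.26% were higher. At baseline Il18 was at 64.6 CPM in DKO and 72.1 CPM in WT. It was lower in DSS WT than in baseline WT (log2 fold change -0.709), and none of the 4 passed in DSS DKO against baseline DKO. Ifngr1, the ligand-binding receptor chain, had a log2 fold change of 0.42 with an adjusted p of 0.0478, which was 0.05 or more in 13 other settings. Socs1, an inhibitor of the kinases, did not pass (log2 fold change -0.26, adjusted p = 0.705).

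Of 10 interferon transcription factors, 3 were lower and 0 higher in DSS DKO than in DSS WT. Irf1, which binds ISRE-like motifs, had 109, 93.8 and 95.6 CPM in DSS DKO, against 150, 161 and 165 CPM in DSS WT (log2 fold change -0.67 ± 0.12, adjusted p = 0.00467). The median log2 fold change of the 10 transcription factors was -0.54. Among all genes 5.98% were lower and 5.26% higher, which also applies to the lists that follow. Of 22 other interferon gamma targets 10 were lower and 0 higher (median -0.62). Among them were Psmb9, an immunoproteasome subunit (log2 fold change -1.30 ± 0.16, adjusted p = 0.000928), and Cxcl9, a chemokine that attracts T cells (-2.21 ± 0.42, adjusted p = 0.00728). Of 23 type I and III interferon targets, 5 were lower and 0 higher (median -0.85). Of 19 further tested GTPases, a list that also holds Mx and Gvin genes from outside the 2 families, 7 were lower and 0 higher (median -0.98). Of 11 interferon inhibitors, 1 was lower and 1 higher (median 0.033), near the shares of all genes. Gm4841, a gene model listed with the immunity-related GTPases, had 0.241, 0.162 and 0.0454 CPM in DSS DKO, against 4.49, 2.13 and 2.57 CPM in DSS WT (log2 fold change -4.30 ± 0.59, adjusted p = 0.00153). Gbp8, a guanylate-binding protein, had 5.72, 9.01 and 8.19 CPM in DSS DKO, against 7.29, 6.45 and 6.53 CPM in DSS WT, and overlapped (log2 fold change 0.18, adjusted p = 0.673). Gbp8 was higher in DSS DKO than in baseline DKO, at 7.64 ± 1.71 and 2.83 ± 0.72 CPM (SD, n = 3 each, log2 fold change 1.44 ± 0.24, adjusted p = 0.0018). In WT it was at 6.76 ± 0.46 CPM after DSS and 3.98 ± 0.75 CPM at baseline (SD, n = 3 and 2), also without overlap. The counts moved with single libraries: without DSS DKO replicate 2 they were 2 of the further GTPases, 5 of the gamma targets and 1 of the type I and III targets, and without DSS WT replicate 3 they were 5 of the gamma targets and 1 of the transcription factors. Fewer genes of the whole table also passed without DSS DKO replicate 2, 691 against 2165. In DSS DKO against baseline DKO, 12 of 23 type I and III targets were lower and 0 higher (median -1.181). Of 22 gamma targets 8 were lower and 1 higher (median -0.358), and of 10 transcription factors 4 and 0 (median -0.508). Of 19 further GTPases 2 were lower and 2 higher. Among all genes 11% were lower and 12.6% higher. Without DSS DKO replicate 2, 6 of the type I and III targets and 4 of the gamma targets were lower.

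Markers of T and natural killer cells ran with the GTPases in DKO against WT after DSS and in DSS against baseline in WT. In DSS against baseline in DKO the markers of these cells did not. Their 16 markers summed to 82.9, 43.2 and 46.9 CPM in DSS DKO, against 164, 153 and 150 CPM in DSS WT, and to 37 to 49 CPM in baseline DKO, against 32.2 to 57.7 CPM in baseline WT. After DSS 11 of 16 were lower and 0 higher in DKO than in WT. The number lower was 0 without DSS DKO replicate 2. No defining marker was at 0 in any group. Among all genes 5.98% were lower and 5.26% higher in DSS DKO than in DSS WT, which also applies to the other cell types below. In WT, 11 of the 16 T and natural killer cell markers were higher after DSS than at baseline, beside 16.9% of all genes. In DKO, 1 of the 16 was higher after DSS (Gzma) and 0 lower, beside 12.6% of all genes higher and 11% lower. The median log2 fold change of these markers in DKO was 0.227, whereas that of the 10 GTPases was -0.768, with 4 lower. The summed level of the 10 GTPases was 146.9, 101.1 and 105.2 CPM in DSS DKO and 269.6 to 368 CPM in DSS WT, with replicate 1 the highest of DSS DKO for both sums. Of 10 neutrophil markers, 5 ran the other way and were higher in DSS DKO, and the other 5 did not pass. Their sums were 175 to 252 CPM in DSS DKO, against 64.4 to 76.2 CPM in DSS WT. Ly6g made up the largest part, with means of 131 CPM in DSS DKO and 30.4 CPM in DSS WT, and S100a8 was at 22.4 and 7.07 CPM. Other markers of the list differed little. Cxcr2 averaged 1.31 CPM in DSS DKO and 1.02 CPM in DSS WT, Camp 1.32 and 1.21, and Mmp9 8.2 and 7.43. Csf3r was lower on average in DSS DKO, at 1.25 CPM, against 1.57 CPM in DSS WT. Of 12 macrophage and dendritic cell markers 0 were higher and 1 lower in DSS DKO than in DSS WT, Cd14. It was at 69.5 CPM in DSS DKO and 97.8 CPM in DSS WT (log2 fold change -0.49, adjusted p = 0.0453), a call lost without any of 9 libraries. All 12 summed to 81.8 to 117 CPM in DSS DKO and 116 to 138 CPM in DSS WT, but without Cd14 the other 11 summed to 40.5, 39.8 and 24.9 CPM in DSS DKO, against 27.7, 34.7 and 33.4 CPM in DSS WT, and overlapped. Of 9 tested B and plasma cell markers 1 was lower in DSS DKO, and of 10 fibroblast and endothelial markers 3 were higher. Of these 3, 0 passed without DSS DKO replicate 2, DSS WT replicate 2 or DSS WT replicate 3. The part of these cells in the GTPase levels was not tested, and in such bulk samples fewer cells of a type and less RNA per cell cannot be told apart.

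**Figure D5:**
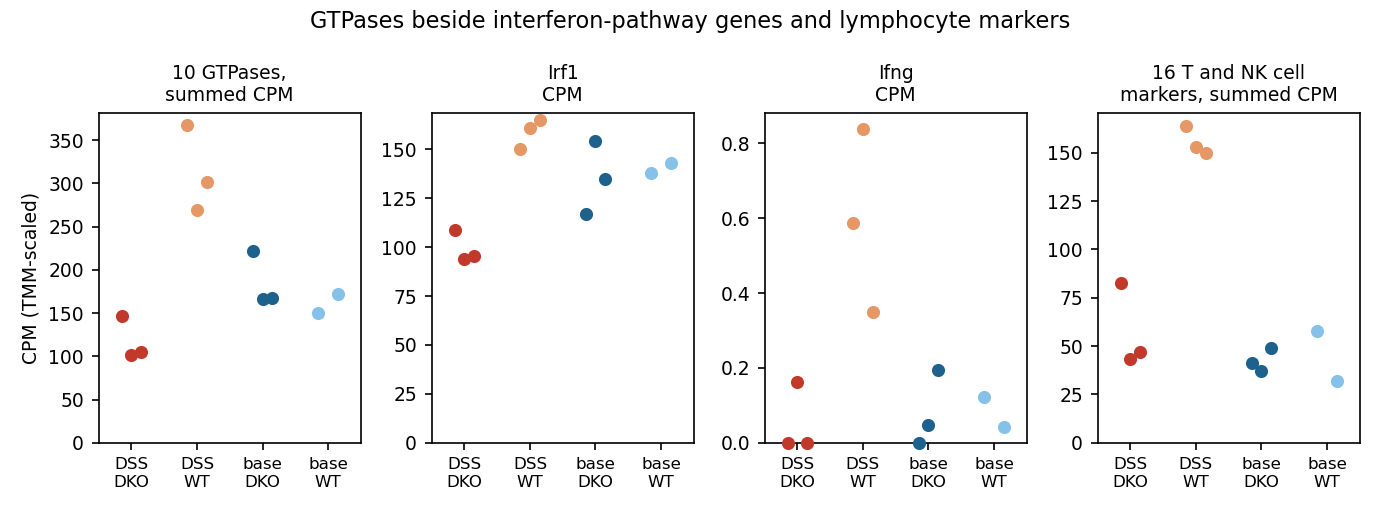
TMM-scaled CPM per library of the 10 GTPases summed, of Irf1 and Ifng, and of 16 T and natural killer cell markers summed, in DSS DKO, DSS WT, untreated DKO (base DKO) and untreated WT (base WT). In all 4 panels the 3 DSS DKO points lie below the 3 DSS WT points.

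The genes most like the family were found by the root mean square difference between their centred log2 CPM and the family mean over the 11 libraries. Among 11178 genes averaging 1 or more on the log2 CPM scale, the median difference was 0.784. The 10 closest, at 0.184 to 0.289, were Rps6ka6, Psmb9, Cps1, Smoc2, Mkks, Exo1, Nlrc5, Phf11b, Pclaf and Dtl. Igtp alone of the GTPases was closer than all of them. The family mean includes each GTPase, however, so the GTPases and other genes are not compared on like terms. Rps6ka6, a kinase gene, was at 2.16 ± 0.35 CPM in DSS DKO, 6.49 ± 0.60 in DSS WT, 3.26 ± 0.30 in baseline DKO and 2.86 ± 0.38 in baseline WT (SD, n = 3, 3, 3 and 2). Nlrc5, the transactivator of class I antigen presentation genes, was at 6.28 ± 2.75 CPM in DSS DKO, 16.1 ± 4.13 in DSS WT, 8.86 ± 2.82 in baseline DKO and 9.18 ± 3.14 in baseline WT. When likeness was measured on the 4 group means alone, 6 of the 10 were again among the closest 10.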

How the data were processed

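The authors deposited whole-number read counts for each gene in 11 libraries, and the unequal totals show that these counts are not normalized. Per the labels' protocols, polyadenylated RNA was selected with oligo(dT) and prepared with the NEBNext Ultra II chemistry. Per the submitters' processing notes, STAR and mm10 were used, and the version, counter, annotation and strand setting are not known here. Groups were taken from genotype and treatment in the labels. No replicates agreed within sampling noise.

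The analysis used edgeR 4.0.16 under R 4.3.3. The filter was filterByExpr with a minimum count of 10 (19267 of 54513 genes kept, with at least 99.91% of each library's counts), libraries were scaled by TMM, and all 11 libraries entered 1 robust quasi-likelihood fit that gave each group its own mean. Two-sided tests were adjusted by Benjamini-Hochberg over all genes tested at 0.05. A standard error is the absolute log2 fold change over the root of its F statistic. CPM values are TMM-scaled. Counting error at these depths matters for genes with few counts, such as Tgtp1 and Ifng.

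Named genes were the 10 GTPases, Ifng, Irf1, Socs1 and Ifngr1, genes from fixed lists (up to 4 called genes with the lowest adjusted p of each) and the 10 genes of most similar pattern, passing over unnamed gene models. Gm12185 was singled out after its values were seen, and not every gene the rule allows is named; 1 gene is not reported here. The members and lists were chosen with earlier results of these data known. Exon lengths and overlaps came from GENCODE M21, and promoters from RefSeq. The methods were tested on simulated counts. Alternatives used DESeq2 1.42.0, limma 3.58.1 (voom), other filters and scalings, a minimum fold, a replicate block and leaving out libraries.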

Additional observations from a re-analysis of the deposited data

Results flagged for a closer look

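In 5 GTPases the difference between DSS and baseline libraries in DKO epithelium was unlike that in WT epithelium by the interaction test of edgeR's quasi-likelihood model. It is called the DSS effect here, although DSS and the sex of the mice cannot be told apart in it. The interaction, DKO minus WT on the log2 scale, was -4.727 for Tgtp1 (DSS effect -1.50 in DKO and 3.23 in WT), -2.932 for Tgtp2 (-0.68 in DKO and 2.25 in WT) and -1.843 for Igtp (-0.86 in DKO and 0.98 in WT). It was -1.354 for Irgm2 (-0.97 in DKO and 0.38 in WT) and -1.272 for Irgm1 (-0.40 in DKO and 0.87 in WT). These calls were lost without baseline WT replicate 1, but so were most calls of the whole table, and 1 library was then left in that group.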

How the results depend on the processing

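After DSS, the log2 fold change of every GTPase stayed below 0 in all settings run for DKO against WT, and Irgm2, Igtp, Iigp1, Tgtp1 and Tgtp2 passed in each of them. The number lower was 9 of 10, 5 with a minimum fold of 1.5 and 5 to 9 without 1 library. At baseline it was 0 throughout. For DSS in WT the number higher was 5, 8 with limma-voom, 3 with the minimum fold and 3 to 7 without 1 library. For DSS in DKO the number lower was 4, 1 with the minimum fold, 2 with only the groups compared, 1 without baseline DKO replicates 1 and 2 (chosen after seeing the data) and 1 to 7 without 1 library. For the interaction it was 5, 8 without a filter on low counts, 8 with DESeq2, 2 with the minimum fold, 2 without baseline DKO replicates 1 and 2 and 0 to 8 without 1 library. Interaction calls in the whole table moved too, at 302 in the main fit, 1469 without a filter on low counts and 1260 with DESeq2. The minimum fold asks for more than a difference from 0, and settings with fewer libraries have less data. Other causes were not tested. Signs turned in 3 values that had not passed: Gbp6 for DSS in WT ran from -0.21 (without baseline WT replicate 1) to 0.602, Gbp7 for DSS in DKO was 0.033 without baseline DKO replicates 1 and 2, and Socs1 for DKO against WT after DSS ran from -0.558 to 0.235 (the last without DSS WT replicate 1). With the replicate block the counts were 9, 0, 6, 6 and 7 in the order above. Replicate numbers of DSS DKO and DSS WT libraries gave correlations of deviations of 0.302, 0.019 and 0.201, and those of the other comparisons gave -0.071 to 0.141. These values cannot show whether samples of the same number were paired, and the block is not used for pairing. Scaling moved the median of all genes by under 0.1 (log2). Low counts limit Tgtp1 and Ifng.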

Other observations

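Partners of the GTPases in autophagy and ubiquitin conjugation were mixed after DSS, with 4 of 17 higher and 3 lower in DKO, beside 5.26% of all genes higher and 5.98% lower. Calcoco1, a gene for an autophagy receptor, had 24.9, 32.5 and 30.8 CPM in DSS DKO, against 17.5, 15.7 and 15.7 CPM in DSS WT (edgeR adjusted p = 0.00263), and its groups did not overlap. Without DSS WT replicate 2, 1 of the 17 passed as higher, and without DSS DKO replicate 2 or DSS WT replicate 3, 0 passed as lower. Of 12 inflammasome genes, 2 were higher and 1 lower in DSS DKO, the last near the share of all genes. Gm12185, which shares sequence with the Tgtp genes and was singled out after its values were seen, had 2 to 23 counts in DSS DKO, against 98 to 232 in DSS WT, and 17 to 43 in baseline DKO, against 26 to 53 in baseline WT.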
